A study of Arabidopsis thaliana with 6 samples.

Results

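The core of gibberellin perception in Arabidopsis thaliana is encoded by 9 genes, which are defined by their locus identifiers; the rule uses no measured value, but the set was chosen with earlier results of these data known. They are the 5 DELLA genes GAI (AT1G14920), RGA (AT2G01570), RGL1 (AT1G66350), RGL2 (AT3G03450) and RGL3 (AT5G17490), the 3 receptor genes GID1A (AT3G05120), GID1B (AT3G63010) and GID1C (AT5G27320), and the F-box gene SLY1 (AT4G24210). All 9 were among the 24487 genes of the deposited tables. Transcripts were measured by RNA sequencing of seedlings 4 days old, grown at 22 °C after a cold step of at least 3 days at 4 °C, in darkness throughout. The 6 libraries came from wild type (3) and, by their labels, from the atino80-6 mutant (3), whose name refers to the chromatin remodelling ATPase INO80; the latter are called mutant-labelled libraries here. No other allele, transgene or treatment is given for either group, and neither the accession nor the type of mutation is named. Nothing says that replicates were separate cultures, so p-values measure only the spread between these libraries.

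DELLA proteins are nuclear repressors of growth that belong to the GRAS family of transcriptional regulators. Gibberellin binds a GID1 receptor, the bound receptor takes hold of the DELLA protein, and SLY1 then brings the DELLA protein to a ubiquitin ligase for destruction. In dark-grown seedlings, gibberellin and the removal of DELLA proteins are known to sustain the long hypocotyl and to hold back light-type development. The files hold transcript levels and no protein levels.

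The libraries held between 18446028 and 24156610 reads. INO80 (AT3G57300) was at 31.4, 34.7 and 32.3 FPKM (fragments per kilobase and per sequenced amount, scaled between libraries by the authors) in wild type, and at 158, 185 and 187 FPKM in the mutant-labelled libraries. It rose 5.40-fold (limma adjusted p = 2.8e-06), so reads from the gene were not lost in the mutant-labelled libraries. A level for the whole gene does not show whether the transcript was intact. Every direction here rests on the labels as deposited. Wild type 1 and atino80-6 3 differed most from their own replicates: chi-square over degrees of freedom was 20.4 to 23.1 for the pairs with 1 of them, and 5.82 and 8.11 for the remaining pairs. Markers of a seedling were present in every library, with PORA, the protochlorophyllide reductase gene of dark-grown seedlings, at 98.3 to 169 FPKM. Of 6 such markers, PYK10, a root and hypocotyl gene, rose 1.46-fold and SCR, of the root and shoot endodermis, fell 1.26-fold (limma adjusted p = 0.021 and 0.0088), while PORA, PORB, STM and ATML1 did not pass. That is 33.3% called, near the 34.2% of all tested genes. The part of tissue make-up in the results below was not tested. In whole seedlings, fewer cells of a type and less RNA per cell cannot be told apart.

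Among the 9 genes, 3 were called higher and 1 lower in the mutant-labelled libraries, and 5 did not pass the test. The genes that rose were RGL2 (3.21-fold), RGL3 (2.17-fold) and GAI (1.27-fold), all of them DELLA genes, and the gene that fell was the receptor gene GID1B (1.46-fold). The test was limma on 20222 genes whose mean normalized count reached 10, two-sided, with Benjamini-Hochberg adjustment and a threshold of 0.05. It called 34.2% of these genes, 17.7% higher and 16.6% lower, so the 4 calls among 9 genes are read against that background. The median log2 change was 0.23 over the 9 genes and 0.00039 over all tested genes. The groups did not overlap for 7 of the 9 genes, where the share over all tested genes was 48.3%. The authors' deposited table called the same 4 genes and none of the other 5, where it called 31.2% of its genes with an adjusted p.

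**Figure D1:**
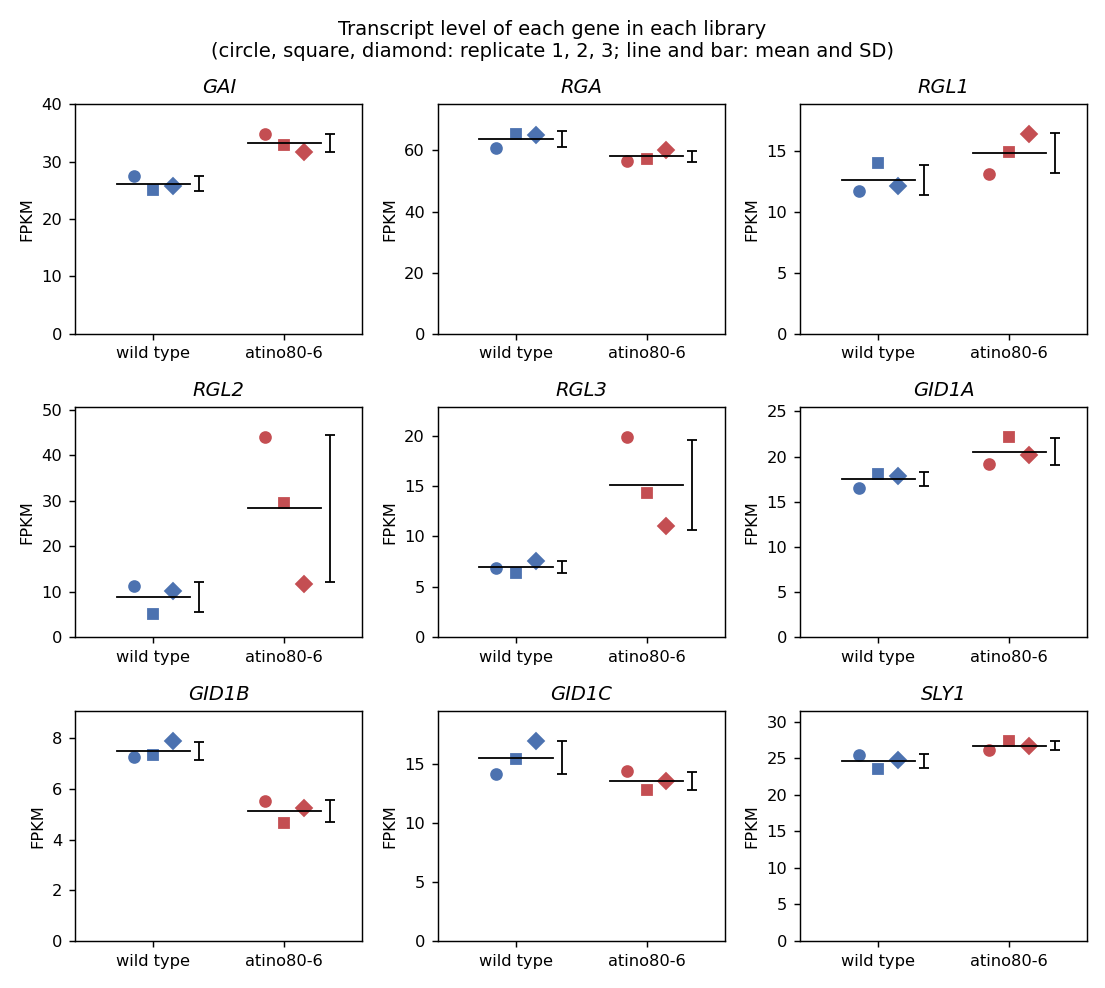
Each panel plots 1 gene, with FPKM on the vertical axis from 0 and the 3 libraries of each group as points, beside the mean and the SD. RGL2 reached 43.9 FPKM in atino80-6 1 but 11.6 in atino80-6 3, close to the highest wild type library at 11.3, whereas the points of RGA and SLY1 lay close together within each group.

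**Figure D2:**
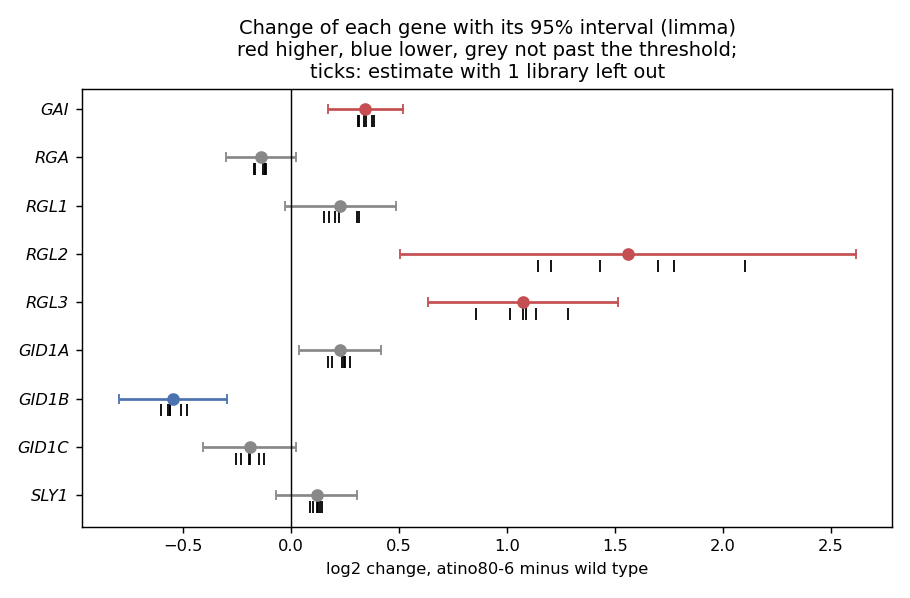
The horizontal axis is the log2 change (mutant-labelled minus wild type) of each gene with its 95% interval from limma, and the ticks below it are estimates with 1 library left out. The interval of RGL2 ran from 0.50 to 2.61, the widest of the 9 genes, and those of GAI, RGL2, RGL3, GID1A and GID1B did not include 0.

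RGL2 encodes the DELLA protein best known for holding back seed germination. Its level was 11.3, 5.11 and 10.1 FPKM in wild type 1, 2 and 3, and 43.9, 29.4 and 11.6 FPKM in atino80-6 1, 2 and 3. Every mutant-labelled library was above every wild type library, but atino80-6 3 exceeded the highest of them by less than the wild type libraries differed among themselves. The means were 8.84 ± 3.27 and 28.3 ± 16.2 FPKM (SD, n = 3 each), a log2 change of 1.56 ± 0.46 (SE; limma adjusted p = 0.03). Leaving out wild type 2 (log2 change 1.21, limma adjusted p = 0.1), wild type 3 (1.70, adjusted p = 0.055), atino80-6 1 (1.14, adjusted p = 0.089) or atino80-6 2 (1.43, adjusted p = 0.1) ended the call. It also ended with robust empirical Bayes, which lets genes of unusual spread keep more of their own variance (limma adjusted p = 0.12). With wild type 1 and atino80-6 3 both left out, the change was 2.32 (limma adjusted p = 0.00089). For RGL2 these were the libraries nearest the other group, so leaving them out could only widen the difference.

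RGL2 varied more within groups than the other 8 genes. Its highest mutant-labelled library stood 3.78-fold over the lowest, and its highest wild type library 2.20-fold over the lowest. The residual SD of RGL2 on the log2 scale was 0.82, larger than in 98.9% of the 17187 genes with a mean normalized count of 50 or more. It was 0.055 for RGA and 0.046 for SLY1, larger than in 5.57% and 3.19% of these genes.

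Within each group, the summed seed storage transcripts were lowest in the same library as RGL2. For a list chosen after the values were seen, 10 genes of cruciferins, albumins and oleosins, the summed level was 481, 140 and 540 FPKM in wild type 1, 2 and 3, and 1127, 1701 and 173 FPKM in atino80-6 1, 2 and 3. In both measures wild type 2 was the lowest wild type library and atino80-6 3 the lowest of its group. The highest library was atino80-6 1 for RGL2 and atino80-6 2 for the storage genes. The cruciferin gene CRU1 made up most of the storage sum, at 115 FPKM in wild type 2 and 1176 FPKM in atino80-6 2. Of these 10 genes 2 rose (the albumin gene SESA1 and the oleosin gene OLEO2) and 0 fell, which is 20.0% called against 34.2% of all tested genes. SESA4 was at 0 in wild type 2. Within wild type SESA1 was lowest in wild type 3 (0.059 FPKM), where all others on the list were lowest in wild type 2. The values of SESA1 rest on 1 to 130 reads and those of SESA4 on 0 to 42 reads. Wild type 2 and atino80-6 3 were also the lowest libraries of their groups for RGL3 and GAI. For GAI the libraries of a group differed little, with a coefficient of variation of 4.97% in wild type and 4.77% in the other group. The share of all genes with this order was not computed. The part of seed RNA in the results for RGL2, RGL3 and GAI was not tested.

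RGL3 encodes the DELLA protein that is linked to jasmonate responses. It held 6.92, 6.37 and 7.55 FPKM in wild type, and 19.8, 14.4 and 11.0 FPKM in atino80-6 1, 2 and 3. All 3 mutant-labelled libraries lay above the wild type range, and atino80-6 3 was again the lowest of them. The log2 change was 1.08 ± 0.19 (SE, n = 3 each; limma adjusted p = 0.003), with a 95% interval from 1.56-fold to 2.86-fold. The call held in all 18 alternatives (log2 change 0.86 to 1.28, limma adjusted p at most 0.014).

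GAI encodes a DELLA protein that acts in vegetative growth. It held 27.6, 25.0 and 25.8 FPKM in wild type, and 34.9, 33.0 and 31.7 FPKM in the mutant-labelled libraries. The groups were apart and each was tight, with a coefficient of variation of 4.97% and 4.77%. GAI rose from 26.1 ± 1.30 to 33.2 ± 1.58 FPKM (SD, n = 3 each), a log2 change of 0.35 ± 0.08 (SE; limma adjusted p = 0.008). This call too held in all 18 alternatives, with limma adjusted p at most 0.041.

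RGA acts with GAI in stem and hypocotyl growth. It held 60.7, 65.5 and 65.1 FPKM in wild type, and 56.6, 57.3 and 60.2 FPKM in the mutant-labelled libraries. The groups did not overlap, yet the log2 change of -0.14 did not pass (limma adjusted p = 0.17), with a 95% interval from -0.30 to 0.03. With wild type 1 and atino80-6 3 both left out, RGA was called lower (log2 change -0.20, limma adjusted p = 0.036). For RGA these were the libraries nearest the other group, so leaving them out could only widen the difference.

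RGL1, the remaining DELLA gene, held 11.7, 14.0 and 12.2 FPKM in wild type, and 13.1, 14.9 and 16.5 FPKM in the mutant-labelled libraries. The groups overlapped, and the log2 change of 0.23 (95% interval -0.03 to 0.49) did not pass (limma adjusted p = 0.15).

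Summed over the 5 DELLA genes, transcripts were at 118, 116 and 121 FPKM in wild type, and 168, 149 and 131 FPKM in the mutant-labelled libraries. The pair of GAI and RGA held 88.3, 90.5 and 90.9 FPKM in wild type, and 91.5, 90.2 and 92.0 FPKM in the other group, with overlapping ranges. RGL1, RGL2 and RGL3 together held 29.9, 25.5 and 29.9 FPKM in wild type, and 76.9, 58.7 and 39.1 FPKM in the other group. The ranges of this second sum were apart. Without RGL2 the DELLA sum still lay apart, at 107 to 111 FPKM in wild type and 119 to 124 FPKM in the other group.

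The make-up of the DELLA pool differed accordingly. RGA gave 53.9% ± 2.54 of DELLA FPKM in wild type and 39.3% ± 6.23 in the mutant-labelled libraries (SD, n = 3 each), with ranges apart. RGL2 gave 7.44% ± 2.69 and 18.2% ± 8.71, with overlapping ranges (4.41% to 9.52% against 8.86% to 26.1%). RGL3 gave 5.87% ± 0.379 and 9.94% ± 1.72, with ranges apart. The share of GAI was 22.1% and 22.4%, and RGA stood 2.45-fold over GAI in wild type and 1.75-fold in the other group. No test was made on these shares.

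**Figure D3:**
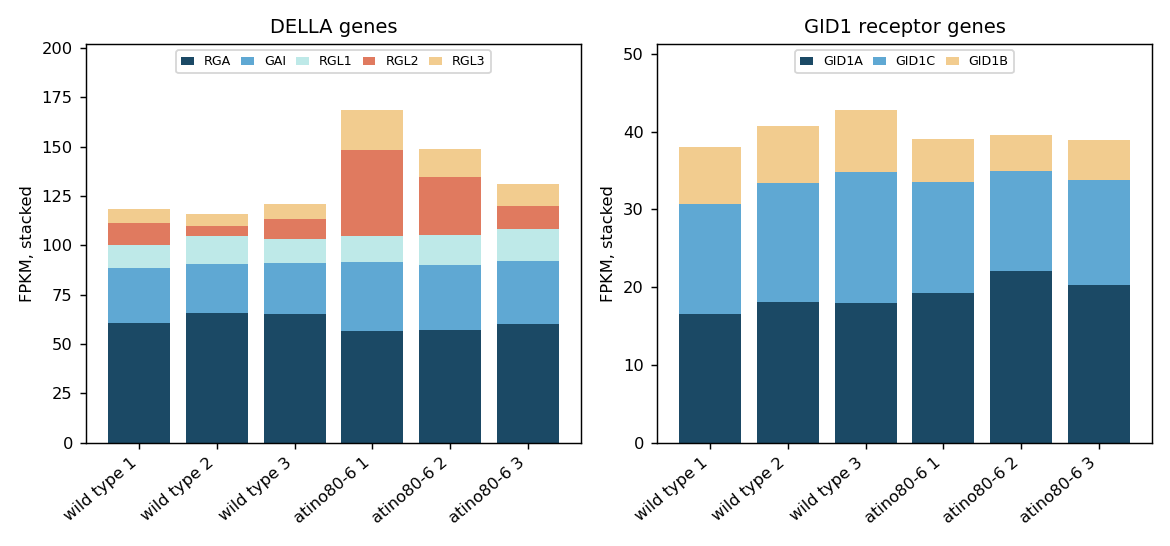
Stacked bars give FPKM in each of the 6 libraries, on the left for the 5 DELLA genes and on the right for the 3 GID1 receptor genes, with vertical axes from 0. The DELLA bars ran from 116 to 121 FPKM in wild type and from 131 to 168 in the mutant-labelled libraries, while the GID1 bars overlapped (38.0 to 42.7 against 39.0 to 39.6).

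The 3 receptor genes encode proteins that overlap in function. GID1B held 7.26, 7.34 and 7.90 FPKM in wild type, and 5.53, 4.67 and 5.23 FPKM in the mutant-labelled libraries. The groups were well apart, and GID1B fell from 7.50 ± 0.347 to 5.14 ± 0.437 FPKM (SD, n = 3 each). The log2 change was -0.55 ± 0.11 (SE; limma adjusted p = 0.0055), and the gene was called lower in all 18 alternatives (limma adjusted p at most 0.03).

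GID1A held 16.6, 18.0 and 17.9 FPKM in wild type, and 19.2, 22.1 and 20.2 FPKM in the mutant-labelled libraries, with no overlap. The log2 change of 0.23 (95% interval 0.04 to 0.42) did not pass (limma adjusted p = 0.064), but with TMM scaling of the libraries it did (0.25, limma adjusted p = 0.047). GID1C held 14.2, 15.4 and 16.9 FPKM in wild type, and 14.4, 12.8 and 13.5 FPKM in the mutant-labelled libraries. The ranges of GID1C overlapped, and its log2 change of -0.19 (95% interval -0.40 to 0.03) did not pass (limma adjusted p = 0.16).

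The summed level of the 3 GID1 genes had overlapping ranges, while the make-up of the sum differed. The sum was 40.5 ± 2.39 FPKM in wild type and 39.2 ± 0.335 FPKM in the mutant-labelled libraries (SD, n = 3 each). GID1A gave 43.2% ± 1.22 of it in wild type and 52.3% ± 3.37 in the other group, and GID1B gave 18.5% and 13.1%, with ranges apart for both. DELLA FPKM over GID1 FPKM was 3.11, 2.84 and 2.83 in wild type, and 4.30, 3.76 and 3.36 in the mutant-labelled libraries. The highest wild type ratio lay below the lowest of the other group; no test was made on these sums.

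SLY1, the F-box subunit that takes DELLA proteins to the ubiquitin ligase, held 25.5, 23.6 and 24.8 FPKM in wild type, and 26.1, 27.4 and 26.8 FPKM in the mutant-labelled libraries. The groups did not overlap, but the log2 change of 0.12 did not pass (limma adjusted p = 0.29). Its 95% interval ran from 0.955-fold to 1.24-fold.

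By level per length, RGA led in both groups, at 63.8 ± 2.66 FPKM in wild type and 58.0 ± 1.94 FPKM in the other group (SD, n = 3 each). In wild type the order went on with GAI, SLY1, GID1A, GID1C, RGL1, RGL2, GID1B and RGL3. Neighbours with overlapping libraries in that order were GAI and SLY1, GID1A and GID1C, RGL2 and GID1B, and GID1B and RGL3. In the mutant-labelled libraries the order was RGA, GAI, RGL2, SLY1, GID1A, RGL3, RGL1, GID1C and GID1B. RGL2 there overlapped with its neighbours GAI and SLY1. GID1A overlapped with RGL3, RGL3 with RGL1, and RGL1 with GID1C. GID1B stood last and apart from GID1C. RGL2 was above 62.7% of all genes in wild type and above 85.9% in the other group, and RGL3 above 57.2% and 74.5%. The reads behind a single value ranged from 201 (GID1B) to 3636 (RGA). No annotated gene of the reference assembly TAIR10.1 overlapped any of the 9 genes, and how reads matching several of them were counted is not given in the sources used here.

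For each gene that passed, the 3 genes with the most similar profile were sought among the 17187 genes above. The measure was the mean absolute difference, over the 6 libraries, of log2 levels taken relative to the wild type mean. AT5G14450 was nearest to RGL2, at 0.047, followed by ABI4, an abscisic acid response factor of seeds, at 0.056 and HVA22B at 0.13. ABI4 held 2.59, 1.07 and 2.46 FPKM in wild type, and 9.71, 6.71 and 2.55 FPKM in atino80-6 1, 2 and 3, with overlapping groups. ATNTT2, a plastid nucleotide transporter gene (0.050), GYRA, a gyrase subunit gene (0.067) and AT5G49555 (0.070) were nearest to RGL3. GSTT1, a glutathione transferase gene (0.019), AT4G01570 (0.023) and PTAC13 (0.024) were nearest to GAI. ARI15 (0.017), AT2G14910 (0.032) and VIIIA (0.036) were nearest to GID1B.

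**Figure D4:**
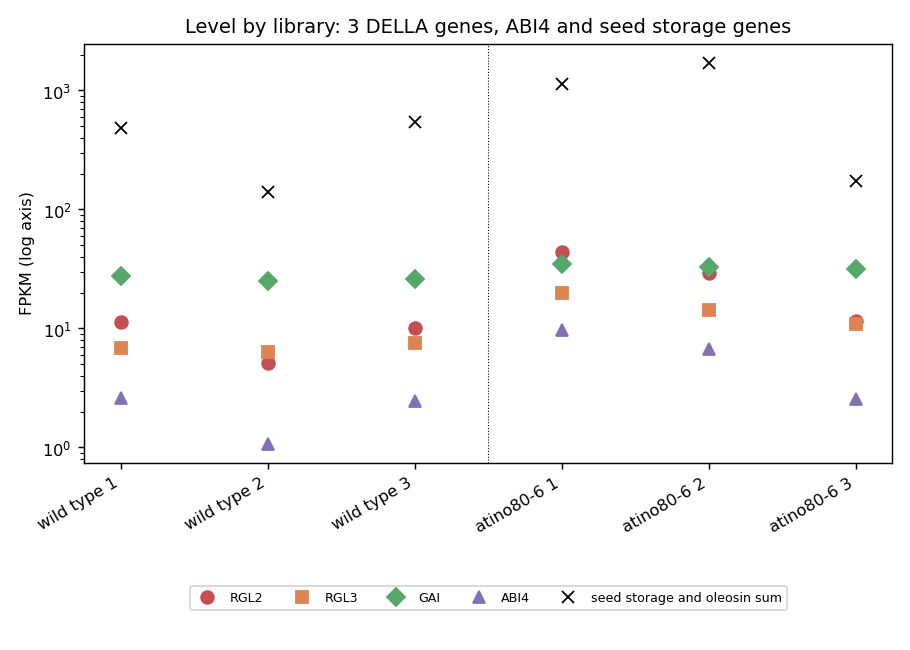
FPKM on a log axis is plotted for each of the 6 libraries, for RGL2, RGL3, GAI, ABI4 and the sum of 10 seed storage and oleosin genes. RGL2 and the storage sum were each lowest in wild type 2 among the wild type libraries (5.11 and 140 FPKM) and lowest in atino80-6 3 (11.6 and 173 FPKM) among the mutant-labelled ones.

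Of 11 tested genes of other gibberellin signalling components, 1 was higher and 0 were lower (median log2 change 0.02), which is 9.09% called against 34.2% of all tested genes. The gene that rose was BRG2, a RING-type gene, from 5.15 ± 0.554 to 10.5 ± 0.932 FPKM (SD, n = 3 each; limma adjusted p = 0.00044). SNE, the closest relative of SLY1, was at 0.566, 0.505 and 0.226 FPKM in wild type, and 0.982, 0.966 and 1.10 FPKM in the mutant-labelled libraries. These values rest on 4 to 15 reads each, and the log2 change of SNE did not pass (limma adjusted p = 0.063). SPY and SEC, which attach sugars to DELLA proteins, were at 0.02 and -0.08 on the log2 scale (limma adjusted p = 0.9 and 0.36).

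Proteins that DELLA proteins are known to bind had transcripts that moved both ways, 4 higher and 4 lower of 17 tested, with a median of -0.16. That is 47.1% called, against 34.2% of all tested genes. PIF5 and PIF1, phytochrome-interacting factors that DELLA proteins restrain, rose 1.49-fold and 1.43-fold (limma adjusted p = 0.00083 and 0.0083). IDD4 and IDD2, zinc finger factors, fell 1.94-fold and 1.34-fold (limma adjusted p = 0.00015 and 0.0061). The number lower was 2 when any of wild type 2, wild type 3, atino80-6 1 and atino80-6 2 was left out, and 7 when wild type 1 and atino80-6 3 both were. Over all tested genes, the number lower also varied, from 2316 to 4384 in the 18 alternatives, against 3351 in the main fit.

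Genes known as early targets of DELLA proteins gave 3 higher and 3 lower of 13 tested (median 0.11), with GID1A and GID1B counted among the 13. The share called was 46.2%, against 34.2% of all tested genes. GA3OX1, a late enzyme of gibberellin synthesis, held 4.81, 4.33 and 4.13 FPKM in wild type, and 13.3, 13.3 and 14.9 FPKM in the mutant-labelled libraries. It rose 3.13-fold, with groups far apart (limma adjusted p = 1.7e-05). AT5G50915 rose 2.25-fold and AT2G31730 fell 2.32-fold, both of the basic helix-loop-helix family (limma adjusted p = 8.9e-05 and 0.00051). SCL3 and XERICO, well known DELLA targets, were at 0.11 and 0.02 on the log2 scale and did not pass (limma adjusted p = 0.38 and 0.85).

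LBD40, also on the target list, held 4.52, 2.85 and 4.48 FPKM in wild type, and 17.8, 15.3 and 5.68 FPKM in atino80-6 1, 2 and 3. As for RGL2, the lowest libraries of each group were wild type 2 and atino80-6 3. LBD40 rose 3.27-fold (limma adjusted p = 0.016), a call that ended when wild type 2 (adjusted p = 0.058), atino80-6 1 (0.052) or atino80-6 2 (0.065) was left out.

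Of 14 tested genes of gibberellin synthesis and inactivation, 6 rose and 2 fell, with a median of 0.46, so 57.1% were called where 34.2% of all tested genes were. The 6 that rose encode synthesis enzymes (GA2, GA3, KAO2, GA20OX1, GA20OX3 and GA3OX1) and the 2 that fell encode inactivating oxidases (GA2OX4 and GA2OX6). With 1 library left out, 4 to 7 genes of this list were called higher and 2 lower. Over all tested genes, 2549 to 3867 were then called higher, against 3572 in the main fit. GA20OX3 held 0.277, 0.129 and 0.646 FPKM in wild type, and 4.96, 2.92 and 0.991 FPKM in atino80-6 1, 2 and 3, on 5 to 161 reads. Its log2 change was 2.96 (limma adjusted p = 0.0087), and 1.43 on the log2(FPKM + 1) scale; it was 2.45 without wild type 2 or atino80-6 1, 3.50 without wild type 3 and 3.60 without atino80-6 3.

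Families that respond to gibberellin had 37.5% (GASA) and 25.0% (PRE) of their tested genes called, against 34.2% of all tested genes. Of 8 tested gibberellin-regulated GASA genes 3 rose and 0 fell (median 0.43), namely GASA1 (log2 change 0.61), AT2G14900 (0.57) and AT1G22690 (2.33, on 4 to 45 reads). GASA1 lost its call when wild type 3 or atino80-6 2 was left out (limma adjusted p = 0.066 and 0.08). Of 4 tested genes of the PRE family, small helix-loop-helix factors, AT1G74500 rose (2.20-fold, limma adjusted p = 0.028) and 0 fell. Without wild type 1, wild type 3, atino80-6 1 and atino80-6 2 in turn, its limma adjusted p was 0.067, 0.084, 0.09 and 0.11.

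**Figure D5:**
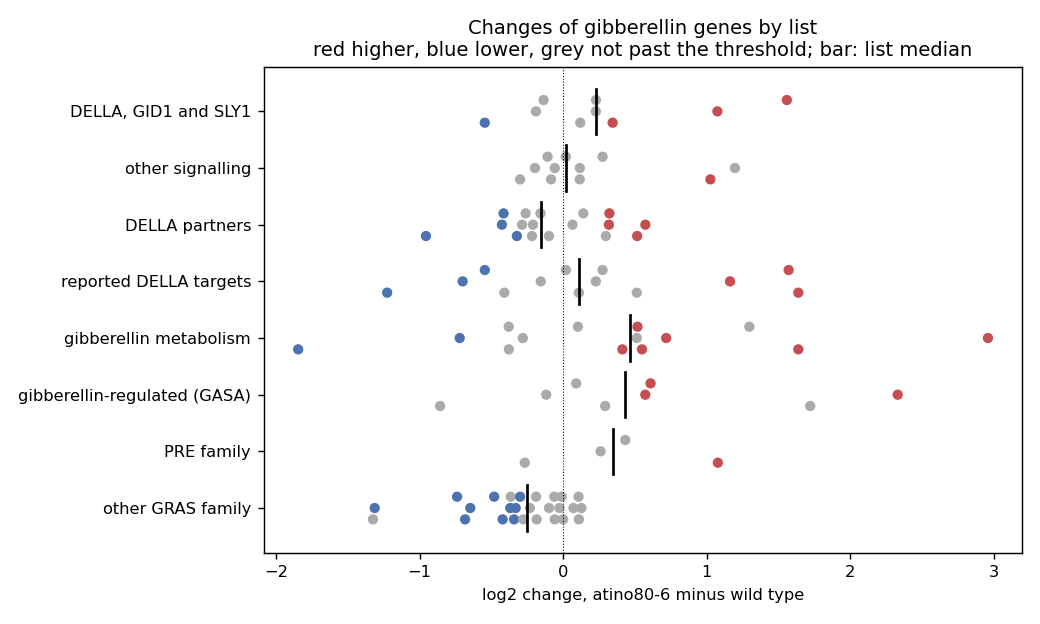
Each point is 1 tested gene of a gibberellin-related list, placed by its log2 change (mutant-labelled minus wild type) and coloured by whether it rose, fell or did not pass, with the list median as a bar. The other GRAS genes had 0 points called higher and 10 called lower, while the DELLA, GID1 and SLY1 genes had 3 higher and 1 lower.

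The wider GRAS family had 0 genes higher and 10 lower of 26 tested besides the DELLA genes, with a median of -0.25. This was 38.5% called, against 34.2% of all tested genes, of which 17.7% were higher and 16.6% lower. The 4 with the largest falls were AT2G29060 (2.45-fold), AT2G37650 (1.68-fold), AT5G59450 (1.59-fold) and AT1G07520 (1.57-fold). Among the 5 DELLA genes 3 rose and 0 fell; the difference between these lists was not tested. The number of GRAS genes lower was 6 when wild type 2 or atino80-6 1 was left out and 5 when wild type 3 was. Over all tested genes, the number lower also varied, from 2316 to 3545 with 1 library left out, against 3351 with all 6.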

How the data were processed

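The authors deposited FPKM values for 6 libraries, named as normalized with DESeq2, and a table of their comparison. Per the file headers that table gives a mean signal over the libraries, log2 fold changes with their errors, a score (change over error), p-values and adjusted p-values. The submitters' processing notes name the build TAIR10 and the tools featureCounts, HISAT2, DESeq2, SAMtools, FastQC, deepTools and cutadapt; the annotation and strand setting are not given in the sources used here.

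FPKM values were turned back into normalized counts with the deposited mean signal of each gene, and into reads with size factors; all 146922 values came out whole to within 0.01 reads. Genes with a mean normalized count of 10 or more were tested with limma 3.58.1 (R 4.3.3) on log2(normalized count + 1), with a trended empirical Bayes variance. The procedure was also run on simulated counts. These had the same spread setting for every gene, so they do not show how it handles genes as variable as RGL2. The deposited values were FPKM, and limma was the only test fitted. No count model was fitted to the recovered reads, which limma voom used among the alternatives. Folds are ratios of mean FPKM. The analysis used Python 3.11.15 and pandas 2.3.3.

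The 9 genes and the lists were chosen with earlier results of these data known. Named were the 9 genes, INO80, from each list up to 4 called genes with the largest change, and the 3 nearest profiles of each called gene; other genes were named after their values were seen. Protein sequence comparisons were not analysed here.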

Additional observations from a re-analysis of the deposited data

How the results depend on the processing

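The 18 alternatives were pseudocounts of 0.5 or 5, no filter on low values or a filter at 50, library totals made equal, quantile normalization, TMM factors, log2(FPKM + 1), limma voom, robust empirical Bayes, a replicate block, each of the 6 libraries left out, and wild type 1 with atino80-6 3 left out. GAI, RGL3 and GID1B kept direction and call in all 18; RGL1, GID1C and SLY1 kept their direction and passed in none.

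The log2 change of RGL2 was 1.56 with robust empirical Bayes, where it did not pass, and 1.14 to 2.10 with 1 library left out. RGA passed at -0.20 without wild type 1 and atino80-6 3, making 2 of the 9 genes lower, and GID1A passed at 0.25 with TMM factors. The number of DELLA partners lower was 2 to 5 with 1 library left out and 7 without wild type 1 and atino80-6 3. Other GRAS genes lower numbered 5 to 11 with 1 left out. Over all tested genes, 2316 to 3545 were lower with 1 library left out, against 3351 in the main fit. Gibberellin metabolism genes higher numbered 4 to 7 with 1 library left out. A filter at 50 left 1 gibberellin metabolism gene lower and 0 PRE genes higher, and with 1 library left out 0 to 1 PRE genes were higher. Without wild type 1 and atino80-6 3, 5 GASA genes were higher. Other signalling genes higher numbered 2 with log2(FPKM + 1), limma voom or that pair left out, and 1 to 2 with 1 library left out. Those lower numbered 2 with equal totals, 1 with quantile normalization, robust empirical Bayes or that pair left out, and 0 to 1 with 1 left out. Of the 20 genes named for the largest changes in their lists, 3 lost a call in at least 1 alternative and 0 changed direction. Called genes named otherwise, such as GA2, GA3, KAO2 and GA20OX1, were not followed gene by gene. Differences in share between groups moved by less than the SD pooled over both groups; that of RGL2, 10.8 points, ran from 6.87 to 15.5 points with 1 library left out, a move larger than the wild type SD.

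Deviations from group means correlated across genes at 0.027, -0.19 and -0.097 for equal replicate numbers, and at -0.15 to 0.25 for unequal ones. With 3 libraries in each group these values cannot decide whether the libraries were paired. With the replicate block the calls stayed at 3 of the 9 genes higher and 1 lower, with RGL2 at 1.56 (limma adjusted p = 0.018), and over all genes 3158 were higher and 2919 lower, against 3572 and 3351 without it.

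Depth limits SNE, GA2OX4, AT1G22690 and SESA4, with under 50 reads in each library, more than the 9 genes, where at least 201 reads lay behind each value. The cause of the calls lost above was not tested.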
